A study of Mus musculus with 3 samples.

Results

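The genes described are 10 components of cadherin- and nectin-based cell-cell junctions in c2c12 myoblasts, an immortalized mouse cell line that can fuse into myotubes. They were taken by symbol from the 23238 gene symbols in the deposited counts and comprise 3 classical cadherins (Cdh15, Cdh2 and Cdh11), 4 catenins (Ctnnb1, Jup, Ctnnd1 and Ctnna1), the nectin Pvrl2 (now Nectin2), its cytoplasmic partner Mllt4 (afadin, now Afdn) and the receptor phosphatase Ptprf. All 10 symbols were found, and all 10 reached 1 CPM, a count scaled to the total of its library, in at least 1 library, as did 13169 symbols in all. The cells were kept for 2 days in myogenic induction medium (DMEM with horse serum and antibiotics) on a tissue culture plate (TCP), on hydrogels of methacrylated gelatin (GelMA), or on GelMA-PSS hydrogels, which held 15% GelMA and 1% poly(sodium 4-styrenesulfonate), a sulfonated polymer used as a mimic of heparin. TCP and GelMA served as the controls for GelMA-PSS, and all 3 groups shared the cell line and the medium.

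One library was sequenced per substrate, so the spread between cultures of 1 substrate is unknown and the comparisons carry no p-value. The counts summed to 119799095 (TCP), 87071144 (GelMA) and 192171443 (GelMA-PSS), and the 10 genes took between 0.243% and 0.317% of them. Intervals describe counting error alone and would be wider if each read pair had entered the counts as 2 reads, a setting the sources used here do not give. A gene was called changed at 2-fold on the scale of log2(CPM + 1). The sample label of muscle was checked against 10 markers of skeletal myoblasts and myotubes, which were all above 1 CPM. Their summed level was 25311, 18993 and 15899 CPM in TCP, GelMA and GelMA-PSS. Myh3 alone made up 10182, 6355 and 3037 CPM of these sums. The median log2 ratio of the 10 markers on GelMA-PSS was 0.11 to GelMA and -0.19 to TCP. With the trend of ratios on transcript length and GC taken off, these medians were -0.15 and -0.39.

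Classical cadherins are calcium-dependent adhesion proteins that bind the same cadherin on the neighbouring cell. In the cytoplasm they hold p120-catenin near the membrane and either beta-catenin or plakoglobin further along the tail, and alpha-catenin then links the complex to actin. Nectins form a parallel adhesion system that reaches actin through afadin. In skeletal muscle, M-cadherin and N-cadherin sit at the contacts between myoblasts that align before they fuse into myotubes, and beta-catenin also acts as a transcriptional co-activator in Wnt signalling.

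Beta-catenin and plakoglobin are paralogs that compete for the same site on the cadherin tail, and the ratio between their transcripts is followed in the results. The most similar stretch of 1 read length is printed to show how far reads from the coding part of these paralogs can be told apart. Capitals mark the bases that differ between both coding sequences, which come from GENCODE on GRCm38.
Ctnnb1, chr9:120952922-120955166 (+ strand, exons 7 and 8 of 15, intron left out): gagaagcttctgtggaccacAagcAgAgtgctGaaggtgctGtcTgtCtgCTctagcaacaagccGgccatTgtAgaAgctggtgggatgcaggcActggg
Jup, chr11:100379607-100380625 (- strand, exons 6 and 7 of 14, intron left out): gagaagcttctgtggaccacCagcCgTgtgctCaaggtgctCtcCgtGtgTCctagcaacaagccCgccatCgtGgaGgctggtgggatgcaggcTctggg
Even here 14 bases differ, an identity of 86.1%, and the longest run of identical bases shared by both coding sequences was 20. The cadherins were further apart, with at least 29 mismatches in any window of this length between Cdh2 and Cdh11, 30 between Cdh15 and Cdh2 and 31 between Cdh15 and Cdh11.

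Cdh15 encodes M-cadherin, the cadherin most typical of the myogenic lineage (GRCm38 chromosome 8, 122847966 to 122867397, + strand). Its level was 669 CPM on TCP, 609.6 CPM on GelMA and 672 CPM on GelMA-PSS. The level therefore spanned 1.10-fold over the 3 libraries, the narrowest span among the 10 genes with this scaling. The log2 ratio was 0.14 for GelMA-PSS against GelMA and 0.01 for GelMA-PSS against TCP, and the sign of both turned negative without a scaling factor, which also moved the median of all genes from 0.03 and 0.04 to -0.10 and -0.06. Against TCP it also turned negative with median-of-ratios size factors. Cdh15 was thus not called in any comparison. Because RNA came from whole cultures, fewer cells of a type and less RNA per cell cannot be told apart for this or any gene below.

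Cdh2 encodes N-cadherin, which is shared by muscle, nerve and mesenchymal cells (chromosome 18, 16588877 to 16809246, - strand). Its level was 224 CPM on TCP, 182 CPM on GelMA and 136 CPM on GelMA-PSS, a stepwise order. GelMA-PSS was 1.64-fold lower than TCP and 1.33-fold lower than GelMA, with log2 ratios of -0.71 and -0.41. Neither reached 2-fold. GelMA was itself lower than TCP, with a log2 ratio of -0.30, so part of the distance between GelMA-PSS and TCP lay between the 2 controls. With the trend of ratios on transcript length and GC taken off, GelMA-PSS had log2 ratios of -0.52 to TCP and -0.18 to GelMA. The ratio between the controls was then -0.34.

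Cdh11 encodes cadherin-11, a mesenchymal cadherin (chromosome 8, 102632095 to 102785642, - strand). It stood at 26.6 CPM on TCP, 29.4 CPM on GelMA and 20.4 CPM on GelMA-PSS. The GelMA-PSS value was the lowest, with a log2 ratio of -0.51 to GelMA and of -0.36 to TCP, while the 2 controls differed by 0.14. The difference was again below 2-fold. With the trend on transcript length and GC taken off, the log2 ratio of GelMA-PSS was -0.23 to GelMA and -0.17 to TCP.

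**Figure D1:**
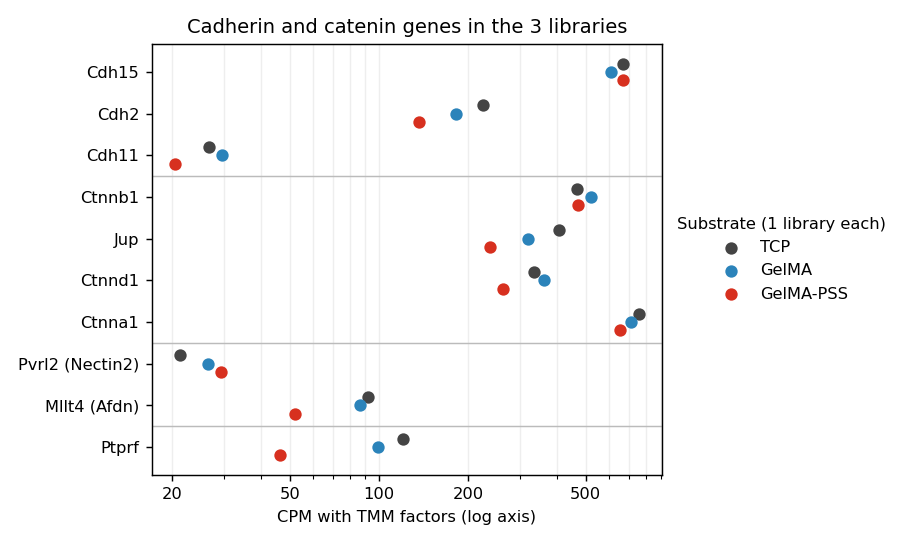
Level of each of the 10 genes in CPM on a log axis, with 1 point per library for TCP (dark grey), GelMA (blue) and GelMA-PSS (red), and grey lines between the roles. The red point is lowest for 7 genes and highest for Cdh15 and Pvrl2, and the widest separation is that of Ptprf, at 120.5, 99.4 and 46.3 CPM. Cdh15 and Pvrl2 keep that place with the scaling used here but not without a scaling factor.

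Between genes, levels were compared only after division by transcript length and scaling to the same sum in each library. On this per-length scale M-cadherin made up 80.1% of the 3 cadherins on TCP, 81.4% on GelMA and 86.7% on GelMA-PSS. N-cadherin made up 18.0%, 16.3% and 11.8%, and cadherin-11 between 1.52% and 2.26%. The cadherin pool was thus dominated by Cdh15 on every substrate, and most so on GelMA-PSS.

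The ratio of Cdh15 to Cdh2 within a library does not depend on how libraries are scaled to each other. It was 4.45 on TCP, 4.99 on GelMA and 7.33 on GelMA-PSS. The ratio on GelMA-PSS was 1.47 times that on GelMA (95% counting interval 1.44 to 1.501) and 1.65 times that on TCP (1.62 to 1.68), whereas the 2 controls differed by 1.12 times (1.10 to 1.15). With the trend of ratios on transcript length and GC taken off (the length-GC adjustment) these values were 1.36, 1.56 and 1.15, so the order of the 3 substrates was the same. Among 23 cadherins listed in the counts, M-cadherin held 56.9%, 58.1% and 62.5% of the summed per-length level, followed on each substrate by Cdh13 (T-cadherin, a cadherin without a cytoplasmic tail) at 25.9%, 24.2% and 22.1%, and then by Cdh2 at 12.8%, 11.6% and 8.53%.

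**Figure D2:**
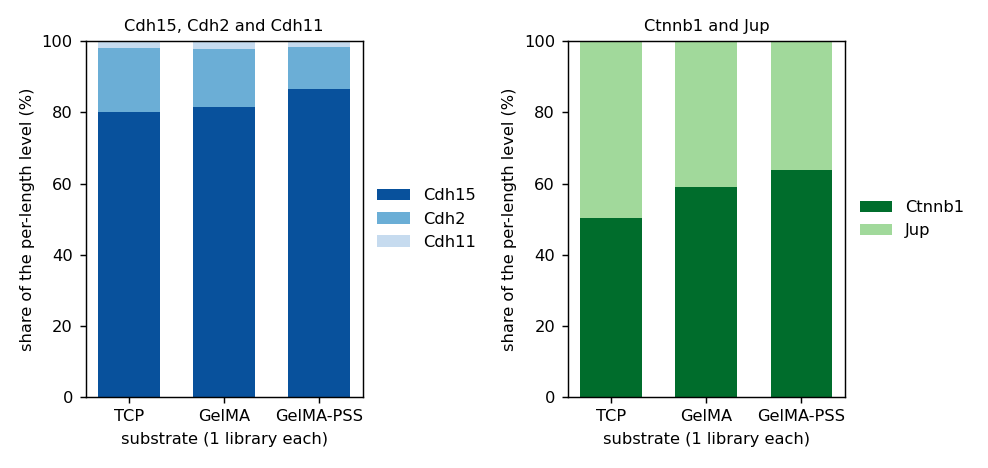
Share of the per-length level, in percent, of Cdh15, Cdh2 and Cdh11 among their sum (left) and of Ctnnb1 and Jup among theirs (right), in 1 library per substrate. The share of Cdh2 is 18.0%, 16.3% and 11.8% and the share of Jup is 49.6%, 41.0% and 36.2% on TCP, GelMA and GelMA-PSS.

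Ctnnb1 encodes beta-catenin (chromosome 9, 120929216 to 120960507, + strand). Its level was 466 CPM on TCP, 521 CPM on GelMA and 472 CPM on GelMA-PSS, and GelMA-PSS lay between the 2 controls. It had a log2 ratio of -0.14 to GelMA and of 0.02 to TCP, and the latter turned negative without a scaling factor. The transcript of beta-catenin thus spanned 1.12-fold over the 3 libraries. Ulk4 on the opposite strand shares 759 exon bases with Ctnnb1 but stood at 1.03 to 3.42 CPM.

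Jup encodes plakoglobin, or gamma-catenin, which serves both adherens junctions and desmosomes (chromosome 11, 100368958 to 100397763, - strand). It stood at 406 CPM on TCP, 320.2 CPM on GelMA and 237 CPM on GelMA-PSS. Each substrate was lower than the one before, with GelMA-PSS 1.71-fold below TCP and 1.35-fold below GelMA. The log2 ratios were -0.77 and -0.43, both short of 2-fold, and that between the controls was -0.34. Of the 13169 genes tested, 6.43% had a lower ratio of GelMA-PSS to TCP.

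Plakoglobin and beta-catenin were nearly equal on TCP on the per-length scale, where the ratio of Jup to Ctnnb1 was 0.984. The ratio was 0.694 on GelMA and 0.568 on GelMA-PSS. Against TCP, the ratio on GelMA-PSS was 0.578 times as large (0.568 to 0.587) and that on GelMA 0.706 times (0.692 to 0.719), so the larger step lay between TCP and GelMA. From GelMA to GelMA-PSS the factor was 0.819 (0.803 to 0.834). Both transcripts are of similar length, 3205 and 3623 bases, and after the length-GC adjustment the 3 factors were 0.592, 0.705 and 0.848. As the printed windows show, the coding sequences of these paralogs differ by 14 or more bases over 1 read length.

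Ctnnd1 encodes p120-catenin, which controls how long cadherins stay at the membrane (chromosome 2, 84600071 to 84650765, - strand). Its level was 335 CPM on TCP, 361 CPM on GelMA and 262 CPM on GelMA-PSS. The log2 ratio was -0.46 to GelMA and -0.35 to TCP, below 2-fold in both. With a transcript of 6362 bases it was the second longest of the 10 genes, and the length-GC adjustment brought both ratios to -0.04. A readthrough gene model, Gm28635, shares 4482 exon bases on the same strand and was not among the symbols of the counts.

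Ctnna1 encodes alpha-E-catenin, the link to actin (chromosome 18, 35118859 to 35254779, + strand). It stood at 757 CPM on TCP, 715 CPM on GelMA and 655 CPM on GelMA-PSS. The span was 1.16-fold, with a log2 ratio of -0.13 to GelMA and of -0.21 to TCP. The ratio of Ctnna1 to Ctnnb1 on GelMA-PSS was 1.01 times that on GelMA, with a counting interval of 0.998 to 1.03 that includes no difference. Against TCP it was 0.854 times (0.843 to 0.866) on GelMA-PSS and 0.844 times (0.831 to 0.857) on GelMA. Lrrtm2 on the opposite strand shares 95 exon bases with Ctnna1 and stood at 23.5 to 28.3 CPM.

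Ranked on the per-length scale, Cdh15 and Ctnna1 were the most abundant of the 10 genes, at 412 and 407 on TCP, 389.7 and 398 on GelMA, and 310.3 and 263 on GelMA-PSS. Their order differed between libraries, with Ctnna1 first on GelMA only. Ctnnb1, Jup, Ctnnd1 and Cdh2 followed in this order on every substrate, and Cdh11 came last on each, at 9.44, 10.8 and 5.44. Pvrl2 stood below Mllt4 and Ptprf on TCP and GelMA and above both on GelMA-PSS, where its place above Mllt4 (16.0 against 13.7) did not hold after the length-GC adjustment, as given with their ratio.

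Pvrl2 encodes nectin-2 (chromosome 7, 19716644 to 19750483, - strand). Its level was 21.2 CPM on TCP, 26.3 CPM on GelMA and 29.1 CPM on GelMA-PSS. The order ran opposite to that of Cdh2 and Jup, with log2 ratios of 0.14 for GelMA-PSS against GelMA, 0.44 against TCP and 0.30 between the controls. None reached 2-fold, and the first turned negative without a scaling factor. Gm20512 on the opposite strand shares 135 exon bases and was not among the symbols of the counts.

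Mllt4 encodes afadin, which binds nectin tails and actin (chromosome 17, 13760539 to 13906150, + strand). Its level was 92.1 CPM on TCP, 86.6 CPM on GelMA and 52.0 CPM on GelMA-PSS. The 2 controls were close, with a log2 ratio of -0.09, and GelMA-PSS was 1.77-fold below TCP and 1.67-fold below GelMA, at log2 ratios of -0.81 and -0.72. This was the second largest difference among the 10 genes and still short of 2-fold. The length-GC adjustment brought the ratios to -0.54 and -0.36. Tcte2 on the opposite strand shares 221 exon bases with Mllt4 and was below 1 CPM in each library.

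Within a library, the per-length ratio of Pvrl2 to Mllt4 was 0.478 on TCP, 0.632 on GelMA and 1.16 on GelMA-PSS. The ratio on GelMA-PSS was 2.43 times that on TCP (2.30 to 2.57) and 1.84 times that on GelMA (1.74 to 1.95). Transcripts of 2735 and 5684 bases differ in length, and after the length-GC adjustment these factors were 1.99 and 1.43. The ratio on GelMA-PSS then came to 0.952 from the TCP value and 0.905 from the GelMA value, so that nectin-2 was above afadin on GelMA-PSS without the adjustment only.

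Ptprf encodes LAR, a receptor tyrosine phosphatase that associates with the cadherin-catenin complex (chromosome 4, 118208213 to 118291405, - strand). It stood at 120.5 CPM on TCP, 99.4 CPM on GelMA and 46.3 CPM on GelMA-PSS, from 14669, 9032 and 8384 counts. The GelMA-PSS value was well below both controls, and Ptprf was the 1 member past the threshold. The transcript fell 2.15-fold against GelMA and 2.60-fold against TCP, at log2 ratios of -1.09 (counting interval of the CPM ratio -1.15 to -1.06) and -1.36 (-1.42 to -1.34). Between the controls the log2 ratio was -0.27. The transcript of 7656 bases is the longest of the 10, and after the length-GC adjustment the log2 ratios were -0.40 and -0.85, neither past 2-fold. Ptprf then ranked above 11.6% of genes in the comparison with GelMA and above 4.05% in that with TCP.

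**Figure D3:**
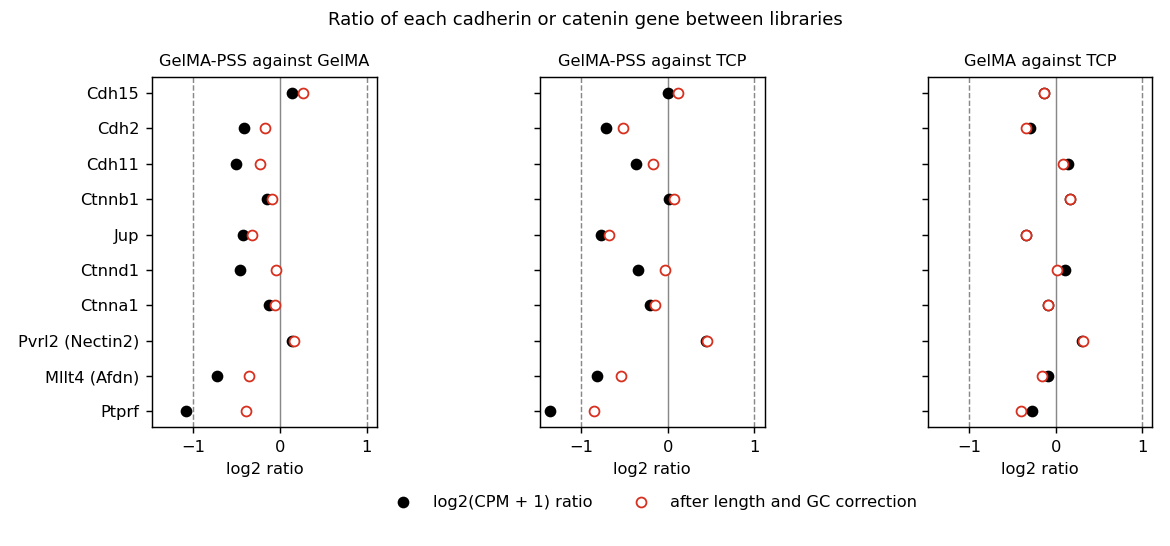
Log2 ratio of each of the 10 genes for the 3 comparisons between libraries, on log2(CPM + 1) (filled) and after the length-GC adjustment (open), with dashed lines at 2-fold. Ptprf lies past the line at -1.09 against GelMA and -1.36 against TCP and moves inside it, to -0.40 and -0.85, after the adjustment. The filled points of Cdh15 and Pvrl2 against GelMA and of Cdh15 and Ctnnb1 against TCP change sign without a scaling factor.

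Counted over the 10 genes, 1 was lower by 2-fold or more on GelMA-PSS than on GelMA, where 2.33% of all genes tested were, and 0 were higher, where 1.77% were. Against TCP, 1 was lower and 0 were higher, beside 3.13% and 3.72% of all genes. Against both controls at once, 1 was lower and 0 were higher, beside 1.16% and 1.37%. Between GelMA and TCP, 0 were lower and 0 were higher, beside 0.296% and 0.706%. With 10 genes, a single call decides each share, and it was Ptprf throughout.

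Whatever the size of the difference, GelMA-PSS had the lowest value of the 3 libraries for 7 of the 10 genes and the highest for 2, whereas over all genes tested it was lowest for 39.4% and highest for 45.3%. The median log2 ratio of the 10 genes was -0.42 against GelMA and -0.36 against TCP, where the medians over all genes were 0.03 and 0.04, and -0.09 between the controls. Both comparisons with GelMA-PSS share that library and are not separate evidence. After the length-GC adjustment the medians of the 10 genes were -0.13, -0.15 and -0.11.

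Transcript length moved with these ratios over the whole transcriptome. Across 13060 genes with a known length, which are not independent replicates, the Spearman correlation between transcript length and the log2 ratio was -0.657 for GelMA-PSS against GelMA, -0.503 for GelMA-PSS against TCP and 0.208 for GelMA against TCP. With genes divided by length into 10 equal bins, the shortest bin had a median log2 ratio of 0.58 and the longest -0.62 for GelMA-PSS against GelMA. The 10 genes had a median length of 4288 bases against 2914 over all genes, and over them the correlation was -0.830, -0.636 and -0.139 for the same comparisons. Pvrl2, Jup and Cdh15 had the shortest transcripts, of 2735, 3205 and 3251 bases. Their adjusted log2 ratios to GelMA and TCP were 0.16 and 0.46 for Pvrl2, -0.33 and -0.68 for Jup, and 0.27 and 0.12 for Cdh15. The part of transcript length in the differences was not tested beyond this adjustment.

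**Figure D4:**
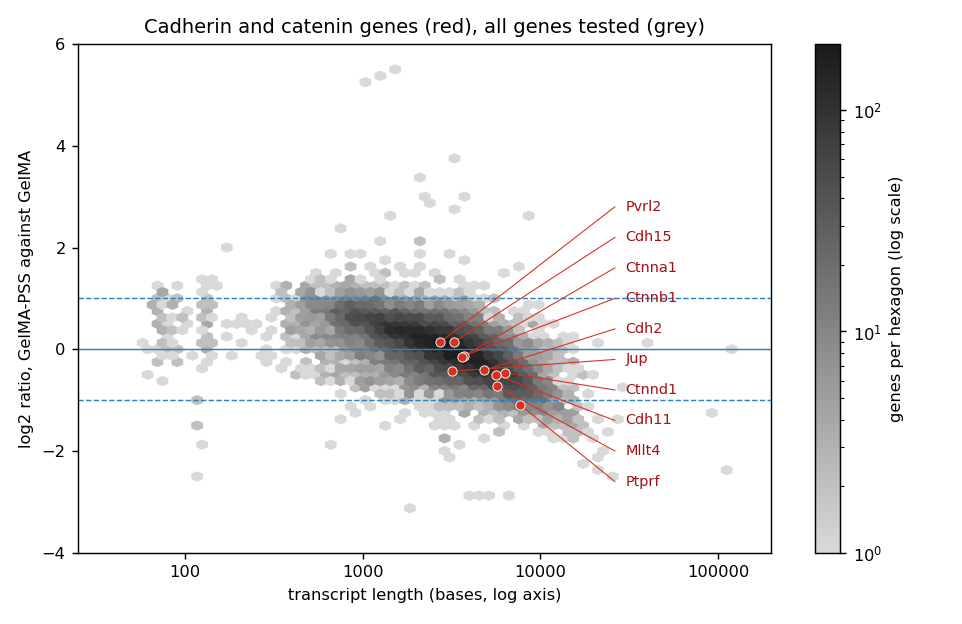
Log2 ratio of GelMA-PSS against GelMA by transcript length in bases (log axis) for 13060 genes, in grey hexagons shaded by the number of genes on a log scale, with the 10 genes in red and dashed lines at 2-fold. Long transcripts lie lower, at a Spearman correlation of -0.657, and the 10 genes lie within the cloud, with Ptprf, the longest, lowest at -1.09. The points of Cdh15 and Pvrl2 fall just below 0 without a scaling factor.

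The pattern of Cdh15 over the 3 libraries was shared by many genes. Among 8763 genes with 10 CPM or more in every library, the nearest by Euclidean distance over the log2 ratios of GelMA and GelMA-PSS to TCP were Etf1 (a translation termination factor), Ints8 (a subunit of the Integrator complex) and Vps41 (a vesicle tethering protein), at distances of 0.00526, 0.00725 and 0.00892. Another measure of how common the pattern was is the number of genes within a distance of 0.1, which was 483.

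Related gene lists were described in the same way, by counts and medians with no test. The counts stand beside all genes tested, where GelMA-PSS was lowest for 39.4% and highest for 45.3% and the median transcript length was 2914 bases. Of 20 other cadherins, 7 passed the filter, and GelMA-PSS had the lowest value for 6 of them, with a median log2 ratio of -0.41 to GelMA and of -0.35 to TCP. Cdh18, a type II cadherin, was the exception at 15.9 CPM on TCP, 23.5 CPM on GelMA and 41.6 CPM on GelMA-PSS, with log2 ratios of 0.80 and 1.33, past 2-fold against TCP only. Cdh6 was close to the limit, at 0.690, 1.00 and 0.0994 CPM. The adjusted medians of these cadherins were -0.16 and -0.25, and Cdh18 kept its call at 1.24.

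Of 19 Fat, Dachsous, Celsr and delta-protocadherin genes, 8 passed the filter, and all 8 were lowest on GelMA-PSS, with medians of -0.75 and -0.44. Fat1, a giant atypical cadherin, passed 2-fold against both controls, at 118 CPM on TCP, 126 CPM on GelMA and 42.8 CPM on GelMA-PSS. Its log2 ratios of -1.53 and -1.44 became -0.44 and -0.68 after the length-GC adjustment. Fat4 passed 2-fold against GelMA only, with ratios of -1.01 and -0.71 that became 0.19 and 0.12 after the adjustment. These genes had a median transcript length of 10870 bases, and their adjusted medians were -0.11 and -0.03.

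Other catenin family genes had medians above 0. Of 6 tested among 10, 3 were highest and 2 lowest on GelMA-PSS, with medians of 0.17 and 0.43, and none passed 2-fold. Ctnnbip1, an inhibitor that keeps beta-catenin from binding TCF factors, stood at 21.0 CPM on TCP, 25.4 CPM on GelMA and 32.5 CPM on GelMA-PSS. Pkp4, a p120-related protein, stood at 66.7, 60.2 and 43.8 CPM.

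Among 8 other nectins and nectin-like genes, 7 were tested, with medians of -0.52 and -0.41, and 5 were lowest on GelMA-PSS. Cadm4, a nectin-like adhesion protein, stood at 23.5 CPM on TCP, 38.1 CPM on GelMA and 60.6 CPM on GelMA-PSS, with log2 ratios of 0.66 and 1.33, past 2-fold against TCP only. Pvrl4, or nectin-4, stood at 3.50, 3.65 and 1.58 CPM. Besides Cadm4, the other gene of this list with its highest value on GelMA-PSS was Pvrl3 (nectin-3), at 17.9, 18.2 and 24.7 CPM. The adjusted medians were -0.26 and -0.46, and Cadm4 kept its call at 1.31.

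For the plaque proteins that tie junctions to actin, the GelMA-PSS value was mostly the lowest. Of 17 tested among 18, 13 were lowest on GelMA-PSS and 2 highest, with medians of -0.30 and -0.27. Plekha7, which binds p120-catenin at the zonula adherens, stood at 46.6 CPM on TCP, 31.9 CPM on GelMA and 18.4 CPM on GelMA-PSS, at log2 ratios of -0.77 and -1.30. Plekha7 passed 2-fold against TCP only and stayed past it after the length-GC adjustment, at -1.01. Lpp, a zyxin-related protein named after its values were seen, was the 1 gene of this list past 2-fold against GelMA, at a log2 ratio of -1.08, which became -0.03 after the adjustment. The median transcript length of the list was 4313 bases, and its adjusted medians were -0.07 and -0.16.

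Partners and relatives of LAR were also lower on GelMA-PSS for the most part. Of 14 tested among 15, 11 were lowest there and 1 highest, with medians of -0.47 and -0.40. Trio, first found by its binding to LAR, stood at 303 CPM on TCP, 305 CPM on GelMA and 113 CPM on GelMA-PSS and was the only one past 2-fold against both controls, at -1.43 and -1.42. Its adjusted ratios were -0.47 and -0.74, so like Ptprf it lost the call. Ppfia4, a liprin-alpha that binds LAR phosphatases, stood at 179, 134 and 73.9 CPM, and Ppfibp2, a liprin-beta, at 3.27, 1.497 and 0.315 CPM, and both passed 2-fold against TCP only. After the adjustment Ppfibp2 kept this call at -1.61 and Ppfia4 lost it at -0.88, and the list medians were -0.04 and -0.15. The median transcript length of this list was 5360.5 bases.

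In the desmosome list, 2 of 8 genes passed the filter, Dsg3 at 4.74, 4.70 and 2.63 CPM and Perp at 1.14, 0.528 and 0.486 CPM, with medians of -0.35 and -0.59. The other desmosomal genes, desmoplakin (Dsp) included, were below 1 CPM in every library. Kinases that act on junctions had medians of -0.16 and -0.05 over 9 of 9 genes, with none past 2-fold. The adjusted medians of these kinases were 0.01 and 0.18. Egfr had the largest difference, at 18.7, 30.2 and 14.6 CPM, followed by Fyn, at 351, 251 and 240.4 CPM. The log2 ratios of Egfr to GelMA and TCP, -0.999 and -0.33, became -0.27 and 0.18 after the length-GC adjustment. Those of Fyn, -0.06 and -0.55, became -0.03 and -0.51.

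Genes of cadherin trafficking and shedding stayed near the median of all genes, with -0.06 and -0.03 over 17 genes and none past 2-fold. Rab11a, of the recycling endosome, stood at 59.8 CPM on TCP, 55.7 CPM on GelMA and 88.4 CPM on GelMA-PSS, and Psenen, a gamma-secretase subunit, at 37.3, 32.6 and 51.6 CPM. The log2 ratios of Psenen to GelMA and TCP, 0.65 and 0.46, became 0.07 and -0.05 after the length-GC adjustment. Those of Rab11a, 0.66 and 0.56, became 0.35 and 0.32. Among 15 myoblast contact receptors and cadherin co-receptors the medians were -0.13 and -0.20, again with none past 2-fold. Ncam1, a neural cell adhesion molecule of myoblasts, stood at 959.8, 724 and 491 CPM, and Cd9, a tetraspanin that takes part in cell fusion, at 326, 346 and 619 CPM. The log2 ratios of Cd9 to GelMA and TCP, 0.83 and 0.92, became 0.32 and 0.51 after the adjustment. Those of Ncam1 stayed at -0.56 and -0.97.

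Of transcription factors known for switching cadherins, 3 of 8 were highest and 3 lowest, with medians of -0.08 and 0.23. Tcf4 stood at 117, 102 and 59.5 CPM and Twist2 at 3.53, 5.17 and 6.97 CPM, and none of the 8 passed 2-fold.

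**Figure D5:**
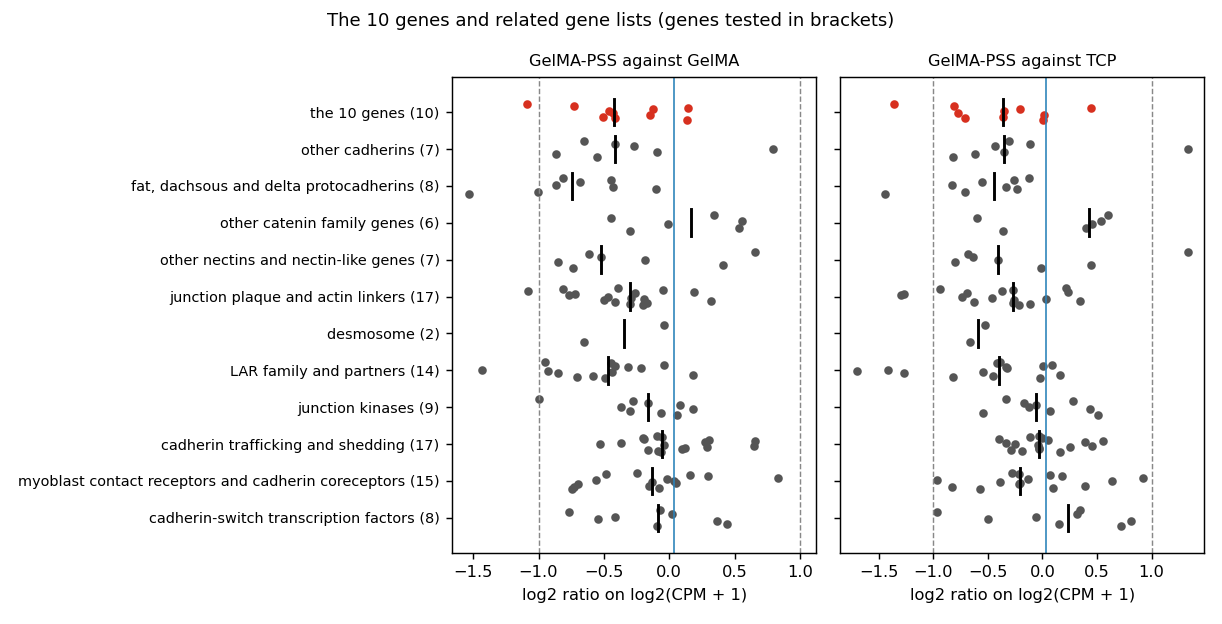
Log2 ratio of GelMA-PSS against GelMA (left) and against TCP (right) for the 10 genes (red) and the genes tested in each related list (grey), with black bars at the medians, a blue line at the median of all genes and dashed lines at 2-fold. The median of the 10 genes is -0.42 and -0.36, and the lowest list median is -0.75, that of the Fat and protocadherin genes against GelMA.

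Markers of other cell types were read beside these values. Epithelial markers summed to 14.4, 10.9 and 8.39 CPM on TCP, GelMA and GelMA-PSS, with 2 of 6 above 1 CPM and 1 at 0 in every library. Endothelial markers summed to 0.961 to 1.09 CPM with 0 of 6 above 1 CPM, and markers of Schwann cells and neurons to 3.84 to 6.75 CPM with 2 of 6. These lists were thus low on each substrate.

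Fibroblast and adipogenic progenitor markers summed to 509, 643 and 1342 CPM, with 5 of 6 above 1 CPM and none at 0. Most of this was Ly6a, which rose past 2-fold against both controls, from 296 CPM on TCP and 431 CPM on GelMA to 1071 CPM on GelMA-PSS (log2 ratio 1.85 to TCP and 1.31 to GelMA, with adjusted values of 1.38 and 0.74 that ended the call against GelMA), and Dcn, at 203, 197 and 259.6 CPM. The defining marker Pdgfra stood at 6.79, 10.0 and 7.44 CPM, with no such order. The log2 ratios of Dcn to GelMA and TCP, 0.39 and 0.35, became -0.01 and 0.03 after the length-GC adjustment. Among the muscle markers, Myh3, the embryonic myosin heavy chain of new myotubes, fell past 2-fold against both controls, at 10182, 6355 and 3037 CPM, and its log2 ratios of -1.07 and -1.75 became -0.61 and -1.41 after the length-GC adjustment, which ended the call against GelMA. It was the 1 muscle marker of 10 past 2-fold against both controls, and the list medians were 0.11 against GelMA and -0.19 against TCP. The adjusted medians of the muscle markers were -0.15 and -0.39, so the sign against GelMA turned. Myf5, a factor of undifferentiated myoblasts, stood at 13.9, 19.5 and 36.5 CPM and passed 2-fold against TCP only. The part of these markers in the values of the 10 genes was not tested.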

How the data were processed

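RNA from c2c12 cells on TCP, GelMA and GelMA-PSS was sequenced for the authors as strand-specific read pairs, with 1 library per substrate. Raw counts per gene symbol were deposited without normalization. The submitters' processing notes name TopHat, edgeR and the builds hg19 and mm10, with no versions. The counting tool, its strand setting and the annotation are not given in the sources used here. The methods name a TruSeq kit and the labels a SMARTER kit. Samples were grouped by their labels.

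The 23282 lines, with 35 symbols given more than once, were summed to 23238 symbols. Counts were scaled to CPM with TMM factors of edgeR 4.0.16 (1.02, 1.04 and 0.943), so that 3 counts correspond to 0.0246, 0.0330 and 0.0166 CPM. Genes with 1 CPM in at least 1 library were kept, and ratios were taken on log2(CPM + 1), which understates the change of low genes. The 2-fold threshold is that of the methods, whose FPKM values were not used here. The results section of the study gives a change greater than 1.5-fold instead, which was run as an alternative. Intervals at 95% are exact Poisson or conditional binomial intervals for a count or a CPM ratio, and sample odds-ratio intervals for ratios within libraries, all from scipy 1.17.1.

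Gene positions, transcript lengths and GC were read from GENCODE vM21 on GRCm38, with 22197 symbols matched directly and 669 through older symbols. For the length-GC adjustment, a loess curve of the log2 ratio on length and then one on GC, both at span 0.3, were taken off with statsmodels 0.14.6. Per-length levels are counts divided by transcript length and scaled to the same sum in each library. The procedure was tested on simulated data. The 10 genes and all lists were chosen with earlier results of these data known. Of each related list the text names every gene past 2-fold the same way against each control, and otherwise the 1 or 2 genes with the largest ratio of GelMA-PSS to either control. Genes named outside this rule (Lpp, Pvrl3, Cdh13, Dsp, Fat4, Ppfia4, Ppfibp2, Dcn, Pdgfra and Myf5) were chosen after their values were seen. Some results the rule would name are not reported here. Alternatives covered scaling, pseudocount, filter, threshold and the adjustment.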

Additional observations from a re-analysis of the deposited data

How the results depend on the processing

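The count of members lower by 2-fold or more, which was 1 against GelMA, 1 against TCP and 1 against both, became 2, 4 and 2 with per-length values in place of scaled CPM, and also 2, 4 and 2 with a 1.5-fold threshold, where Mllt4 joined Ptprf in each and Cdh2 and Jup joined them against TCP. Of all genes, 8.17%, 8.26% and 4.92% were lower with per-length values and 10.8%, 11.5% and 7.18% at 1.5-fold. After the length-GC adjustment the counts were 0, 0 and 0, beside 1.20%, 2.40% and 0.628% of all genes, an adjustment that by construction takes the length trend out of each ratio. Over all genes, the number higher and lower against both controls was 180 and 153 in the report, 57 and 82 after it, 31 and 627 with per-length values, and 1064 and 946 at 1.5-fold. Other scalings, pseudocounts of 0.1 and 5, and other filters left the counts of members as reported.

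Of 30 log2 ratios of members, 26 kept their sign in all 7 settings of scaling, pseudocount and adjustment. The exceptions were Cdh15 against GelMA (-0.33 to 0.27) and TCP (-0.41 to 0.12), Ctnnb1 against TCP (-0.40 to 0.07) and Pvrl2 against GelMA (-0.31 to 0.16), each negative without a scaling factor and with per-length values, which moved the median of all genes to -0.37 against GelMA and -0.32 against TCP. No replicate could be left out, and no paired analysis was possible because each substrate has 1 library. Depth did not limit the members, whose lowest count was 2394.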
